A study of Rattus norvegicus with 24 samples.

Results

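The response to silver nanoparticles with a nominal size of 75 nm and a coating of polyvinylpyrrolidone (PVP) was taken from 9 of the 24 arrays of the study. They were the 5 arrays labelled for this particle, written here as PVP75, and the 4 arrays labelled as control. All were RBEC4, an immortalized line of rat brain endothelial cells that serves as a culture model of the blood-brain barrier, and RNA was read on Illumina rat BeadChips. Cells of both groups were 95% confluent. The PVP75 cells were exposed for 18 h to 1 ppm of the particle, and the control carries no particle, dose or exposure time in its labels. PVP10, the particle with the same coating and a size of 10 nm, and citrate75, the 75 nm particle with a citrate coating, had 5 arrays each and are used here for comparison at the same dose and time. The data come from 1 cell line, and the labels do not say whether arrays of a group came from separate cultures, so the p-values below rest on a spread between samples that could be technical only.

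Silver particles release silver ions, which bind the thiol groups of proteins. Cells sense such stress in part through KEAP1, a thiol-rich protein that holds the transcription factor NRF2 in check. Once freed, NRF2 activates genes for glutathione transfer, NADPH supply and the receptor p62 (Sqstm1), which brings ubiquitinated proteins to autophagy and can itself bind KEAP1. Proteins that are damaged beyond repair are cleared by chaperones, the ubiquitin and proteasome system, and the lysosome. In brain capillaries, endothelial cells add tight junctions and transporters that control what reaches the brain.

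Levels are normalized log2 intensities and were compared only within a probe. A probe counted as detected on an array at a detection p under 0.01. On the control arrays 2269 to 2461 of 22523 probes were detected, and on the PVP75 arrays 2191 to 2399. Each array correlated with others of its group at r between 0.994 and 0.996 (control) and between 0.981 and 0.994 (PVP75) across the kept probes. PVP75 replicates 1, 3, 4 and 5 and control replicate 3 lay on chip 1, and PVP75 replicate 2 and control replicates 1, 2 and 4 on chip 2, so the chip was a term in the model. PVP75 replicate 3 stood apart through 3 probes, described further below, that had lost their signal. Few markers of the labelled cell type were detected. Of 21 endothelial markers on the array 3 were detected on any of the 9 arrays, namely Tie1 and Erg on 1 array each and Thbd on 4, and Cdh5, Tek, Flt1, Vwf and Cldn5 were detected on 0. None of the 19 brain endothelial transporter genes on the array passed the filter. The tight junction scaffold gene Tjp1 was the 1 measured member of the junction list, at a log2 fold change of -0.06. A gene without a detected probe has no measured level here.

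PVP75 changed 149 of 2748 tested probes (5.42%), with 1 probe for each gene. Of these, 72 were higher (2.62%) and 77 lower (2.8%) than control by limma with the chip in the model, at a Benjamini-Hochberg adjusted p under 0.05, which is the meaning of called, rose and fell below. Most changes were small. Among the called probes 112 moved by less than 1.5-fold, 37 by more, and 4 by over 2-fold, namely Slc1a2, Sqstm1, Zfand5 and Slc39a10. The median log2 fold change was 0.48 among the called rises and -0.45 among the called falls, against -0.01 over all tested probes, and a typical 95% interval reached 0.24 to either side. Gene symbols were given for 113 called probes (56 higher, 57 lower), and 36 had none.

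**Figure D1:**
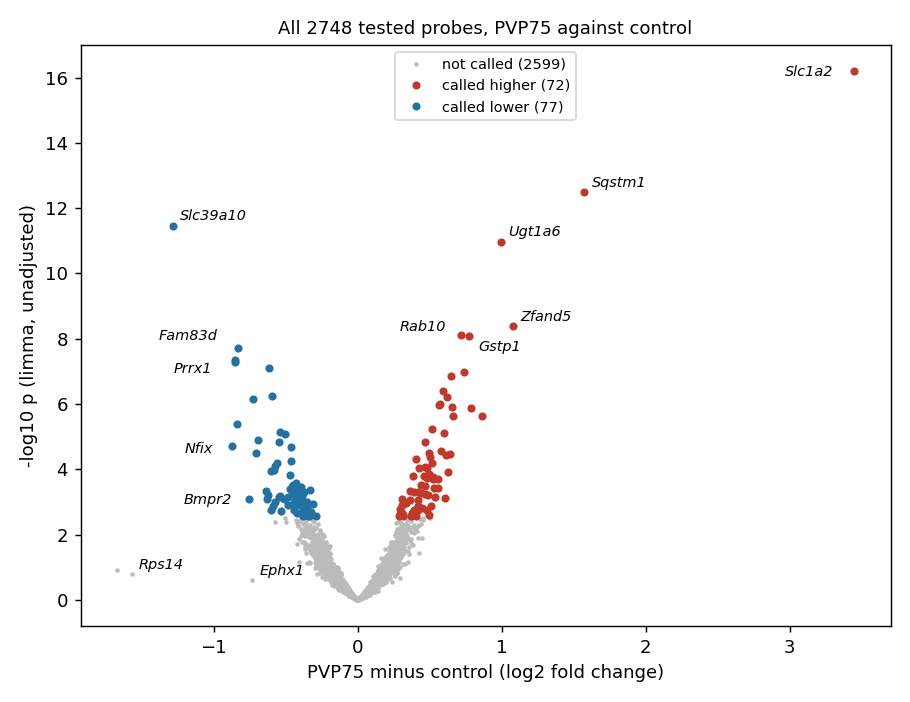
Log2 fold change of PVP75 over control (x axis) against the -log10 of limma's unadjusted p (y axis) for 2748 tested probes, with 72 called higher in red, 77 called lower in blue and the rest in grey. Slc1a2 stands alone at the upper right at 3.45, and Rps14 and Ephx1 lie far to the left without a small p.

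The arrays of both groups did not overlap for 119 of the 149 called probes (61 higher, 58 lower), where 257 of all 2748 tested probes (9.35%) did not overlap, 4.4% higher and 4.95% lower in PVP75. All 149 had the same direction on chip 1 and chip 2, against 61.4% of all tested probes. Their calls rest on the arrays of both chips, so the agreement is not independent of them. Of the 149, 138 were detected on all 9 arrays. Without control replicate 3, the only control array of chip 1, the number called was 73 (39 higher, 34 lower). It was 85 without control replicate 4 (51 higher, 34 lower), and without PVP75 replicate 2, the only PVP75 array of chip 2, the lower calls numbered 47. When only the 9 arrays entered the fit, with the chip term, 45 probes were called. Under median scaling in place of quantile normalization 70 were higher and 45 lower, so that 60.9% of the calls were rises against 48.3% as reported.

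The sizes of the changes depended on the background correction more than the calls did. Without it 171 probes were called, and 1 of them, Slc1a2, changed by over 2-fold. In 20 genes described below the log2 fold change shrank by over 1.5 times. They were Slc1a2, Sqstm1 and Slc39a10, whose values are given with each gene, and Adat2, Angpt2, Arsj, Bmpr2, Ccdc69, Ddit4, Eaf1, Gsto1, Il1rap, Irf7, Lap3, Mxd3, Ndufb7, Pkia, Psma1, Sox4 and Vegfa. Among them Angpt2 (-0.12, limma adjusted p = 0.0544), Lap3 (0.31, 0.0613), Ndufb7 (0.14, 0.079) and Sox4 (-0.19, 0.0625) lost their calls.

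The largest change was in a glutamate transporter. Slc1a2 encodes a sodium-driven importer of glutamate that is best known from astrocytes. Its log2 level was 5.36, 5.25, 5.44 and 5.41 on control arrays 1 to 4, and 8.78, 8.72, 9.08, 8.95 and 8.51 on PVP75 arrays 1 to 5. Every PVP75 array lay at least 3.07 above the highest control array. The level rose from 5.37 ± 0.0843 (SD, n = 4) to 8.81 ± 0.218 (SD, n = 5), a 10.9-fold rise (log2 fold change 3.45, SE 0.194, limma adjusted p = 1.75e-13). The log2 fold change was 3.39 on chip 1 and 3.38 on chip 2. It was 2.21 without background correction (4.64-fold) and 2.22 in the authors' processed values (4.67-fold), still the largest rise without that correction. Slc1a2 is 1 of 9 astrocyte markers on the array. The other 8, among them Gfap, Aqp4, Slc1a3 and Aldoc, were detected on 0 of the 9 arrays, and their mean level before log2 was 20.15 to 21.55 on control and 20.5 to 21.06 on PVP75 arrays.

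Of 8 measured amino acid transporter genes 2 rose and 0 fell. Over all tested probes 2.62% rose, 2.8% fell and 1326 of 2748 were above 0, and the list counts below stand beside these shares. Slc1a5, which exchanges glutamine and other neutral amino acids, rose from 10.70, 10.83, 10.61 and 10.65 on the control arrays to 11.01, 11.02, 11.22, 11.08 and 10.99 on the PVP75 arrays. The groups did not overlap, and the change was small beside that of Slc1a2 (log2 fold change 0.38, SE 0.0879, limma adjusted p = 0.00816). Its call was lost without control replicate 3 (adjusted p = 0.0745). The other 6, including the glutamine importer gene Slc38a2 (0.22) and the glutamate transporter gene Slc1a6 (-0.14), were not called, and the list's median was 0.13.

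**Figure D2:**
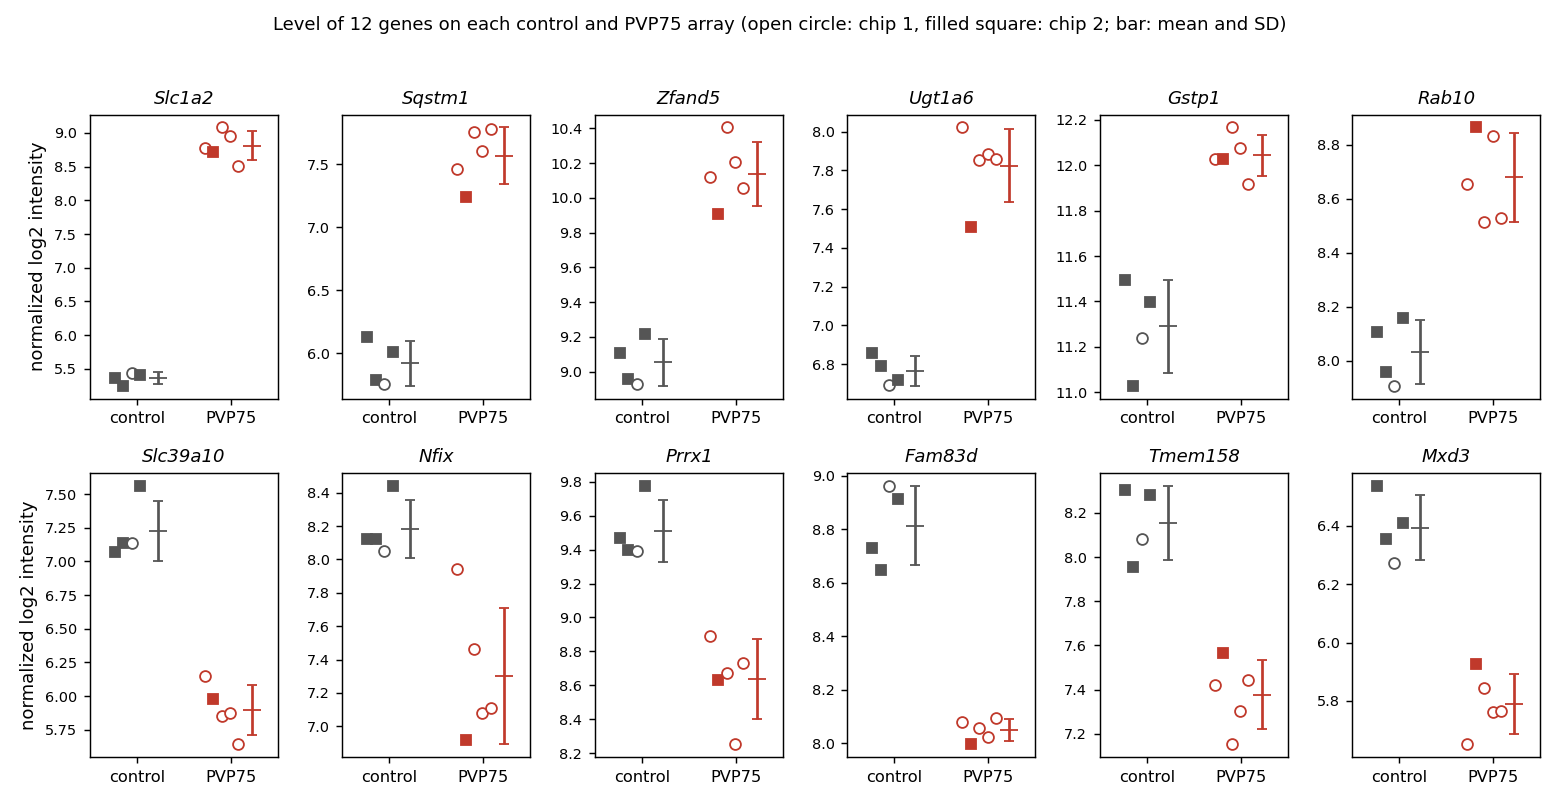
Normalized log2 intensity (y axes, each with its own range) of 6 genes that rose and 6 that fell on the 4 control (grey) and 5 PVP75 (red) arrays. Open circles are chip 1, filled squares chip 2, and the bars give mean and SD. The groups do not overlap in any panel, and Nfix shows the widest spread among PVP75 arrays.

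Of 10 measured NRF2 targets 5 rose and 0 fell, with a median of 0.30 against -0.01 over all tested probes. The 5 were Sqstm1, Ugt1a6, Gstp1, Me1 and Mafg. Among the other 5, Taldo1 was at 0.15, Cbr1 at 0.12, Cbr3 at -0.02, Akr1c12 at -0.04 and Ephx1, whose probe failed on 1 array, at -0.73. The list was chosen with earlier results of these data known. For 21 of its 31 genes on the array, no probe was detected on any of the 9 arrays.

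Sqstm1 encodes the autophagy receptor p62. It was at 6.13, 5.79, 5.75 and 6.01 on the control arrays and at 7.46, 7.24, 7.76, 7.60 and 7.78 on the PVP75 arrays. The groups lay 1.11 apart at their closest, and the lowest PVP75 array was the one on chip 2. The rise was 2.98-fold (log2 fold change 1.57, SE 0.124, limma adjusted p = 4.47e-10), with 1.90 on chip 1 and 1.26 on chip 2. Without background correction it was 0.93 (1.90-fold), below that of Zfand5 (0.99). A further probe of Sqstm1 rose by less (0.84, adjusted p = 0.00040).

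Ugt1a6 encodes an enzyme that couples glucuronic acid to foreign compounds. Control arrays gave 6.86, 6.79, 6.69 and 6.72, and PVP75 arrays gave 8.02, 7.51, 7.85, 7.88 and 7.86. The array on chip 2 was again the lowest of the treated ones, still 0.65 above the controls (log2 fold change 0.99, SE 0.0909, limma adjusted p = 7.39e-09).

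Gstp1 encodes a glutathione transferase. Its level was 11.50, 11.03, 11.24 and 11.40 on the control arrays and 12.03, 12.03, 12.17, 12.07 and 11.92 on the PVP75 arrays, without overlap. It rose 1.71-fold (log2 fold change 0.78, SE 0.0965, limma adjusted p = 3.31e-06). Me1, which encodes the NADPH-forming malic enzyme, stood at 8.61, 8.60, 8.65 and 8.68 in control and at 9.21, 9.06, 9.34, 9.28 and 9.44 in PVP75. The 4 control values lay close together and the treated ones all above them (0.62, SE 0.0969, limma adjusted p = 0.000103). Mafg encodes a small Maf protein that pairs with NRF2 on DNA. It moved from 11.47, 11.45, 11.54 and 11.51 to 12.15, 11.82, 11.84, 12.01 and 11.82, again without overlap (0.46, SE 0.106, limma adjusted p = 0.00816). The call of Mafg did not hold under all 21 alternatives of processing.

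The antioxidant response element, to which NRF2 and small Maf proteins bind, has the core TGACNNNGC. RefSeq promoters of the GRCr8 assembly, 250 bases before to 50 after the gene's start, were found for 1677 of the 1942 named genes tested, for 46 of the 56 called higher and for 48 of the 57 called lower. Read on both strands, the core lay in 7 of the 46 promoters of genes that rose (15.2%) and in 3 of the 48 of genes that fell (6.25%), beside 14.8% of the promoters of all tested genes and 12.2% of the 27457 promoters of the table. The share among the genes that rose was thus near that of all tested genes. The promoters of 3 risen genes that hold the core are shown because they belong to the NRF2 and proteasome lists. Other risen members of these lists did not show it. The promoters of Mafg, Psma1 and Psmd2 lacked the core, and no match was recorded for Sqstm1 or Ugt1a6. Capitals mark the core. Counted from the gene's start, the core begins at base -61 in Gstp1 (chr1:210769656-210769955, minus strand), at -167 in Me1 (chr8:96540195-96540494, minus strand) and at -68 in Psmb2, a proteasome gene (chr5:144254808-144255107, plus strand).
Gstp1: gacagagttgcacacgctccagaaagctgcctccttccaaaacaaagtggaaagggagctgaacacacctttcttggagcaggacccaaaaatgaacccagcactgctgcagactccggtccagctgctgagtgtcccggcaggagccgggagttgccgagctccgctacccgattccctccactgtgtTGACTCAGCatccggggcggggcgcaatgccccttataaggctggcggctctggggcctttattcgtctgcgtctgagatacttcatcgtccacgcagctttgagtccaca
Me1: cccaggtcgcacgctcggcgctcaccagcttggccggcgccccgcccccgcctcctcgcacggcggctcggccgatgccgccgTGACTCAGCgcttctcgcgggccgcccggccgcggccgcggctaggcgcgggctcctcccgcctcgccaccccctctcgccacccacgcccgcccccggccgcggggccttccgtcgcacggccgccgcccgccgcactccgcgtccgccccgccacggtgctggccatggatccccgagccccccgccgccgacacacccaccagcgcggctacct
Psmb2: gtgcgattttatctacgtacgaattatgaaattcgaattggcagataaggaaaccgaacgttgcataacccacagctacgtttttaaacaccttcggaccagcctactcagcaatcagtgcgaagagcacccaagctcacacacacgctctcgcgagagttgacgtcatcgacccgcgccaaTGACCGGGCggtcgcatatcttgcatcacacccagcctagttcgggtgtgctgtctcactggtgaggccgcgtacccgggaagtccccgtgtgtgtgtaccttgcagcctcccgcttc
Gstp1 and Me1 carry the same 9 letters, TGACTCAGC, and Psmb2 has TGACCGGGC. A match is a description of the letters and not a measured binding site.

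Beyond NRF2 targets, 1 of 8 other antioxidant genes rose. It was Gsto1, a glutathione transferase of the omega class, which went from 6.89, 6.97, 6.87 and 6.80 to 7.34, 7.28, 7.44, 7.54 and 7.26 (log2 fold change 0.52, SE 0.121, limma adjusted p = 0.00865). The groups did not overlap. The thioredoxin gene Txn1 (0.19), the peroxidase gene Gpx4 (0.14) and the superoxide dismutase gene Sod1 (0.03) were not called, and the list's median was 0.15.

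Of 26 measured genes of ubiquitin conjugation and removal 2 rose and 0 fell, with a median of 0.09. Zfand5 encodes a zinc finger protein that binds ubiquitin and activates the proteasome. It was at 9.11, 8.96, 8.93 and 9.22 on the control arrays and at 10.12, 9.91, 10.40, 10.21 and 10.06 on the PVP75 arrays. All 5 lay above all 4, and the level rose 2.12-fold (log2 fold change 1.08, SE 0.13, limma adjusted p = 2.26e-06). Uchl5, a deubiquitinase that docks on the proteasome, also rose (0.39, adjusted p = 0.0372), but its groups overlapped, and the call was lost when any 1 of 5 arrays was left out (PVP75 3 and 5, control 1, 3 and 4, adjusted p 0.0561 to 0.203). Not called were the segregase gene Vcp (0.24) and its cofactor genes Nploc4 (0.40) and Ufd1 (0.39).

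Of 20 measured proteasome subunit genes 4 rose and 0 fell. The list's median was 0.18, and 17 of the 20 were above 0, where 1326 of all 2748 tested probes were. Psmb2 encodes a beta subunit of the catalytic core. It went from 7.17, 7.21, 7.01 and 7.24 on the control arrays to 7.35, 7.78, 7.48, 7.52 and 7.67 on the PVP75 arrays, a narrow gap without overlap (log2 fold change 0.47, SE 0.102, limma adjusted p = 0.00499). The other 3 were less stable. The call of the alpha subunit gene Psma1 (0.53, adjusted p = 0.0221) was lost without PVP75 2, control 1 or control 4 (adjusted p 0.0654 to 0.0722). That of Psmd2, a subunit of the regulatory particle (0.48, adjusted p = 0.0372), was lost without PVP75 1, 3 or 4 or control 2, 3 or 4 (0.0522 to 0.12). Psmd12 (0.29, adjusted p = 0.0366) lost its call without PVP75 1, 2 or 3 or control 1, 2 or 4 (0.0532 to 0.121). Without PVP75 replicate 3, 2 members rose, and the median was 0.22.

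Of 8 measured genes of endoplasmic reticulum stress, Herpud1 rose, and 0 fell. Herpud1 encodes a membrane protein that helps export misfolded proteins for degradation. Its level was 8.93, 9.02, 9.10 and 9.12 in control and 9.60, 9.52, 9.70, 9.84 and 9.68 in PVP75. The treated arrays all lay above the controls (log2 fold change 0.60, SE 0.0912, limma adjusted p = 8.22e-05). The chaperone genes Hspa5 (0.10), Canx (0.35) and Calr (0.12) were not called, and the median was 0.20. Crebrf, a regulator of the unfolded protein response, was detected on 0 of 4 control and 5 of 5 PVP75 arrays. Its level was 4.86, 4.83, 4.84 and 4.65 on the control arrays and 5.18, 4.98, 5.46, 5.44 and 5.07 on the PVP75 arrays. Crebrf was not called (log2 fold change 0.37, interval 0.07 to 0.67, limma adjusted p = 0.151). With the control level taken as a detection bound, the fold was 1.23, a value given without an interval. The interval of the fit also includes smaller rises.

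Of 11 measured heat shock proteins and cochaperones 2 rose and 0 fell, with a median of 0.18. Hspb1 encodes a small heat shock protein that holds unfolded proteins and guards actin. Control arrays read 9.98, 9.97, 9.97 and 10.16, and PVP75 arrays 10.65, 10.67, 10.32, 10.59 and 10.92. The lowest treated array, replicate 3, lay 0.16 above the highest control (log2 fold change 0.56, SE 0.131, limma adjusted p = 0.00931). The call was lost without control replicate 3 (adjusted p = 0.0826). Dnaja1, a partner of HSP70, rose by 0.29 (adjusted p = 0.049996), and that call was lost when any 1 of 7 arrays was left out (PVP75 1, 3 and 4 and each control, adjusted p 0.0688 to 0.188). Ppid, a cyclophilin that acts beside HSP90 and was in no list, rose by 0.64 (SE 0.131, adjusted p = 0.00251), from 9.63, 9.50, 9.25 and 9.35 to 10.08, 9.82, 10.28, 9.98 and 10.14, without overlap.

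The promoter of Hspb1 (GRCr8, chr12:26432252-26432551, minus strand) is shown because it holds the heat shock element core GAANNTTC, in capitals, at bases -129 and -109 from the gene's start.
Hspb1: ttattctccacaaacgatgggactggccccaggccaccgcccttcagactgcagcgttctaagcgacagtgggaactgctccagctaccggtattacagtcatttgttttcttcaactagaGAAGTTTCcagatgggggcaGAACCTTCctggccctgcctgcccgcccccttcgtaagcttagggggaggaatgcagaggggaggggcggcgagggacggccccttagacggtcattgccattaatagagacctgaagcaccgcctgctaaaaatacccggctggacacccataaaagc
The promoter of Dnaja1, the other gene of this list that rose, holds the core as well, at bases -181 and 10. The core, read on both strands, was found in 4.35% of the 46 promoters of genes that rose, 2.08% of the 48 of genes that fell and 5.31% of those of all tested genes.

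**Figure D3:**
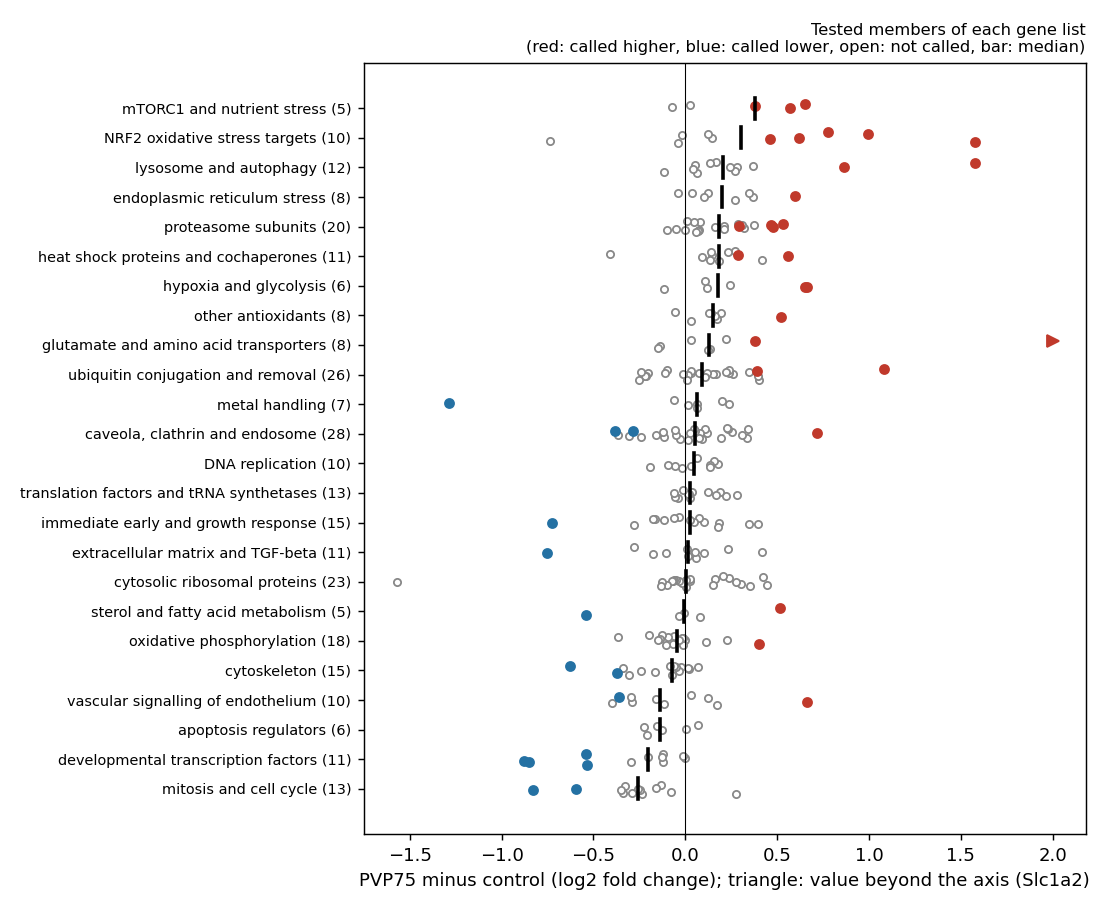
Log2 fold change of PVP75 over control (x axis) for each measured member of 24 gene lists, with the number measured after each name. Red and blue points were called higher and lower, open points were not called, and the black bar is the list's median. Medians run from 0.38 for nutrient stress at the top to -0.26 for mitosis at the bottom, and the triangle is Slc1a2, beyond the axis.

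Of 12 measured lysosome and autophagy genes 2 rose and 0 fell. The median was 0.21 and 11 of 12 were above 0, where 1326 of all 2748 tested probes were. Sqstm1 was one, counted also among the NRF2 targets. The other was Atp6v1b2, a subunit of the proton pump that acidifies lysosomes. It read 7.56, 7.68, 7.67 and 7.18 on the control arrays and 8.17, 8.04, 8.62, 8.74 and 8.54 on the PVP75 arrays. The groups did not overlap (log2 fold change 0.86, SE 0.147, limma adjusted p = 0.000288). The autophagosome genes Map1lc3b (0.14) and Gabarap (0.17), the membrane gene Lamp2 (0.27) and the protease gene Ctsb (0.24) were not called.

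In the list of caveola, clathrin and endosome genes, 1 of 28 measured members rose and 2 fell, with a median of 0.05. Rab10 encodes a small GTPase of vesicle transport. It was at 8.11, 7.96, 7.91 and 8.16 on the control arrays and at 8.66, 8.86, 8.51, 8.83 and 8.53 on the PVP75 arrays, all of them higher (log2 fold change 0.71, SE 0.0884, limma adjusted p = 3.31e-06). Cav1, the coat protein of caveolae, fell by 0.38 on the log2 scale (adjusted p = 0.0216). One control array reached into the PVP75 range, and the call was lost without control 1, 3 or 4 (adjusted p 0.0568 to 0.0888). The clathrin adaptor gene Ap2s1 (-0.29, adjusted p = 0.049996) lost its call when any 1 of 8 arrays was left out, all but PVP75 2 (adjusted p 0.054 to 0.174). Under median scaling it was at -0.13 (adjusted p = 0.652).

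Of 5 measured genes of mTORC1 and nutrient stress 3 rose and 0 fell, with a median of 0.38. They were Ddit4, Prkaa1 and Slc1a5, which is also counted among the transporters. Ddit4 encodes an inhibitor of mTORC1, the kinase complex that drives growth. Its level was 6.33, 6.06, 6.39 and 6.10 on the control arrays and 6.80, 6.85, 7.30, 6.80 and 6.97 on the PVP75 arrays, without overlap (log2 fold change 0.65, SE 0.107, limma adjusted p = 0.000177). Prkaa1, the catalytic subunit of the energy sensor AMPK, moved from 8.16, 8.01, 8.09 and 8.13 to 8.55, 8.63, 8.82, 8.67 and 8.62, again without overlap (0.57, SE 0.092, adjusted p = 0.000156).

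Vegfa, the main growth factor of blood vessels, was at 6.16, 6.33, 6.56 and 6.55 on the control arrays and at 7.29, 6.95, 7.05, 7.01 and 7.34 on the PVP75 arrays. The groups lay 0.40 apart (log2 fold change 0.66, SE 0.112, limma adjusted p = 0.000288). With Ddit4 it made up the 2 rises among 6 measured hypoxia and glycolysis genes. The others were Aldoa (0.24), Gapdh (0.12), Ldha (0.11) and Adm (-0.11), none called, with a list median of 0.18. Among 10 measured vascular signalling genes Vegfa was the 1 rise and Angpt2 the 1 fall, and the median was -0.14. Angpt2, which loosens vessel walls, was detected on 4 of 4 control and 3 of 5 PVP75 arrays (-0.36, adjusted p = 0.0272), and lost its call without PVP75 2 or 3 or control 2, 3 or 4 (adjusted p 0.0521 to 0.13).

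Further large rises were in genes of other roles. Eaf1, a partner of the transcription elongation factor ELL, went from 6.38, 6.36, 6.33 and 6.37 to 7.03, 6.89, 7.16, 6.87 and 7.08 (log2 fold change 0.65, SE 0.0935, limma adjusted p = 2.9e-05). Its control arrays differed by little and every treated array lay at least 0.49 higher. Lap3, a leucine aminopeptidase that trims peptides, read 5.88, 6.04, 5.93 and 6.31 and then 6.82, 6.42, 6.82, 6.60 and 6.71 (0.61, adjusted p = 0.0228). That call was lost without control 1 or 3 (adjusted p 0.0589 to 0.139). Sqle, an oxygen-using enzyme of cholesterol synthesis, rose from 8.87, 8.87, 8.75 and 8.79 to 9.33, 9.40, 9.27, 9.19 and 9.47, without overlap (0.52, SE 0.0934, adjusted p = 0.000628). It was the 1 rise among 5 measured sterol and fatty acid genes, whose regulator Srebf2 (0.08) was not called.

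Among called probes the deepest fall in the background-corrected values was in a metal transporter gene. Slc39a10 encodes a zinc importer of the cell surface. Its level was 7.07, 7.13, 7.14 and 7.56 on the control arrays and 6.15, 5.98, 5.85, 5.87 and 5.64 on the PVP75 arrays. The treated arrays all lay at least 0.93 below the controls, among which replicate 4 stood high. Slc39a10 fell by 1.28 on the log2 scale (2.44-fold, SE 0.112, limma adjusted p = 3.23e-09), with -1.26 on chip 1 and -1.28 on chip 2. Without background correction the value was -0.72 (1.65-fold), and Prrx1, at -0.75, was the deepest fall.

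The other 6 measured metal genes were not called. They were the copper transporter relative Slc31a2 (0.24), the iron exporter gene Slc40a1 (0.20), the copper chaperone gene Ccs (0.07), the metallothionein gene Mt3 (0.07), the zinc exporter gene Slc30a2 (0.01) and Cox17 (-0.06). The median of the list, Slc39a10 included, was 0.07. For 23 of the 30 metal genes on the array, no probe was detected on any of the 9 arrays. Mt3 was the only metallothionein gene among the measured members, so the values do not show how other metallothionein genes responded. Metallothioneins are the classic metal-induced genes, and their shared promoter motif, the metal response element, has the core TGCACNC or TGCGCNC. Read on both strands, it was found in 39.1% of the promoters of genes that rose, 35.4% of those that fell and 36.6% of those of all tested genes.

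Of 11 measured transcription factors of development 4 fell and 0 rose, 0 were above 0, and the median was -0.20. Over all 2748 tested probes 2.8% fell and 1326 were above 0. Nfix, a nuclear factor I gene, was at 8.12, 8.12, 8.05 and 8.44 on the control arrays and at 7.94, 6.92, 7.46, 7.08 and 7.11 on the PVP75 arrays. PVP75 replicate 1 lay just under the controls and the other 4 well under them (log2 fold change -0.88, SE 0.171, limma adjusted p = 0.00165). Prrx1, a homeobox gene of mesenchyme, read 9.47, 9.40, 9.39 and 9.78 and then 8.89, 8.63, 8.67, 8.25 and 8.73. The groups lay 0.50 apart (-0.85, SE 0.116, adjusted p = 1.48e-05).

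Pparg, a nuclear receptor of lipid metabolism that is counted also in the sterol and fatty acid list, was at 9.98, 10.09, 10.08 and 10.14 in control and at 9.53, 9.76, 9.43, 9.41 and 9.40 in PVP75. The chip 2 array was the highest of the treated ones and still below the controls (log2 fold change -0.54, SE 0.099, limma adjusted p = 0.000731). The value of Pparg was -0.64 on chip 1 and -0.31 on chip 2. Its call was lost in the fit to only the 9 arrays with the chip term (limma adjusted p = 0.0563). Sox4 (-0.53, adjusted p = 0.0393) overlapped between the groups and lost its call when any 1 of 8 arrays was left out, all but PVP75 1 (adjusted p 0.0555 to 0.18). The members Twist1 (-0.20), Rarb (-0.29) and Snai1 (-0.12) were not called.

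Most measured mitosis genes lay below control, by amounts that mostly missed the threshold. For 39 of the 52 genes of this list on the array, no probe was detected on any of the 9 arrays. Of 13 measured genes of mitosis and the cell cycle 2 fell and 0 rose, 1 was above 0, and the median was -0.26. Of all 2748 tested probes 2.8% fell and 1326 were above 0. Fam83d, which places a kinase on the mitotic spindle, was at 8.73, 8.65, 8.96 and 8.91 on the control arrays and at 8.08, 7.998, 8.06, 8.02 and 8.10 on the PVP75 arrays. The 5 treated values spanned little and lay at least 0.55 below the controls (log2 fold change -0.83, SE 0.108, limma adjusted p = 6.5e-06). Mxd3, a MYC-network repressor active during proliferation, read 6.54, 6.35, 6.27 and 6.41 and then 5.65, 5.93, 5.84, 5.76 and 5.77, without overlap (-0.59, SE 0.0924, adjusted p = 0.000103). The mitotic kinase genes Plk1 (-0.26), Bub1 (-0.34) and Cdk1 (-0.08) and the cyclin gene Ccnd1 (-0.29) were not called. Of 10 measured DNA replication genes 0 were called by limma, with values from -0.19 (Gins3) to 0.18 (Fen1) and a median of 0.05.

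A pair of further genes taken for the size of their fall had other roles. Tmem158, a membrane protein gene induced by RAS and the 1 called gene of 15 in the immediate early list, was at 8.31, 7.95, 8.08 and 8.28 on the control arrays and at 7.42, 7.56, 7.15, 7.30 and 7.44 on the PVP75 arrays. The groups lay 0.39 apart (log2 fold change -0.73, SE 0.115, limma adjusted p = 0.000116). Arsj, a sulfatase gene, went from 6.41, 6.61, 6.61 and 6.53 to 6.15, 6.002, 5.88, 5.88 and 5.81 without overlap (-0.60, SE 0.135, adjusted p = 0.00601). The call of Arsj was lost without the detection filter (limma adjusted p = 0.0518).

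Of 3 measured inflammation genes 2 fell. Il1rap, the coreceptor for interleukin 1, went from 6.61, 6.53, 6.85 and 6.88 to 6.40, 5.71, 6.19, 6.42 and 5.92 (log2 fold change -0.62, adjusted p = 0.0207), and the call was lost without PVP75 2 or control 3 or 4 (adjusted p 0.0705 to 0.128). The interferon factor gene Irf7 (-0.45, adjusted p = 0.0297) overlapped between the groups, through PVP75 replicate 3 at 6.74, and lost its call without PVP75 4 or 5 or any 1 control array (0.0544 to 0.0937). The third, Nfkb1, was at 0.02.

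The next falls came with a wide spread among the PVP75 arrays. Bmpr2, a receptor for bone morphogenetic proteins and the 1 called gene of 11 in the extracellular matrix and TGF-beta list, was at 6.66, 6.93, 7.10 and 7.36 on the control arrays and at 6.74, 5.90, 6.59, 6.42 and 5.64 on the PVP75 arrays. The groups overlapped (log2 fold change -0.75, SE 0.202, limma adjusted p = 0.023), and the call was lost without PVP75 2 or 5 or control 3 or 4 (0.0527 to 0.123). Basp1, a membrane protein gene counted among 15 cytoskeleton genes, was at -0.63 (adjusted p = 0.023) and lost its call without PVP75 2 (then -0.42) or control 4 (0.0938 to 0.174). Pkia, an inhibitor of protein kinase A, was at -0.63 (adjusted p = 0.0173) and lost it without those same arrays (0.0707 to 0.12). Pdpk1, the kinase that switches on AKT, was at -0.59 (adjusted p = 0.0319) and lost it without PVP75 2, 4 or 5 or control 1 or 4 (0.0519 to 0.214). Without PVP75 2 it was at -0.38. For Basp1, Pkia and Pdpk1 the lowest of all 9 arrays was PVP75 replicate 2 and the highest control replicate 4, both on chip 2. Their values differed between chips, at -0.36 on chip 1 and -1.18 on chip 2 for Basp1, -0.31 and -1.10 for Pkia, and -0.20 and -1.19 for Pdpk1. Cfl2, an actin-severing cofilin, was the other call in the cytoskeleton list (-0.37, adjusted p = 0.0293) and lost it without PVP75 2 or control 1, 3 or 4 (0.0589 to 0.0874).

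Several groups of genes showed no calls or nearly none. Of 23 measured genes for cytosolic ribosomal proteins 0 were called, with a median of 0.01. Of 13 translation factor and tRNA synthetase genes 0 were called (median 0.03), and of 6 apoptosis regulators 0 (median -0.14, from Casp6 at -0.22 to Diablo at 0.07). Of 18 oxidative phosphorylation genes the 1 call was Ndufb7, a complex I subunit (0.40, adjusted p = 0.049996), detected on 2 of 4 control and 5 of 5 PVP75 arrays, which lost its call when any 1 of 7 arrays was left out, all but PVP75 1 and control 1 (adjusted p 0.0598 to 0.202). The list's median was -0.05. Of 4 measured neuron markers 0 were called. Nefm and Slc17a6 were detected on all 9 arrays, Rbfox3 on 4 and Gad2 on 2, while no endothelial marker was detected on all 9. No pericyte, fibroblast, microglia, oligodendrocyte or choroid plexus marker was detected on the 9 arrays.

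Single probes lost their signal on PVP75 replicate 3, and this bears on values given above. Ephx1 encodes an epoxide hydrolase and belongs to the NRF2 targets. Its level was 9.26, 9.002, 4.21, 9.39 and 9.52 on PVP75 arrays 1 to 5 and between 8.73 and 9.76 on the 23 arrays other than replicate 3. The probe of Rps14, a ribosomal protein gene, read 13.88, 13.92, 4.67, 14.03 and 13.88. The unnamed probe ILMN_1351773 read 13.55, 13.42, 4.68, 13.38 and 13.47. In each case replicate 3 alone was low, and no probe met the same description on any of the other 23 arrays. A probe met it when it was detected on all other arrays, was not detected on the one in question, and lay over 2 log2 units under the median there.

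With replicate 3 the fitted log2 fold changes were -0.73 for Ephx1 (SE 0.62), -1.57 for Rps14 (SE 1.10) and -1.67 for the unnamed probe (SE 1.05), with adjusted p of 0.59, 0.482 and 0.421. Without it they were 0.18 (SE 0.127), 0.081 (SE 0.092) and -0.10 (SE 0.0907), with adjusted p of 0.493, 0.716 and 0.627. The directions of Ephx1 and Rps14 turned, and none of the 3 was called either way.

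**Figure D4:**
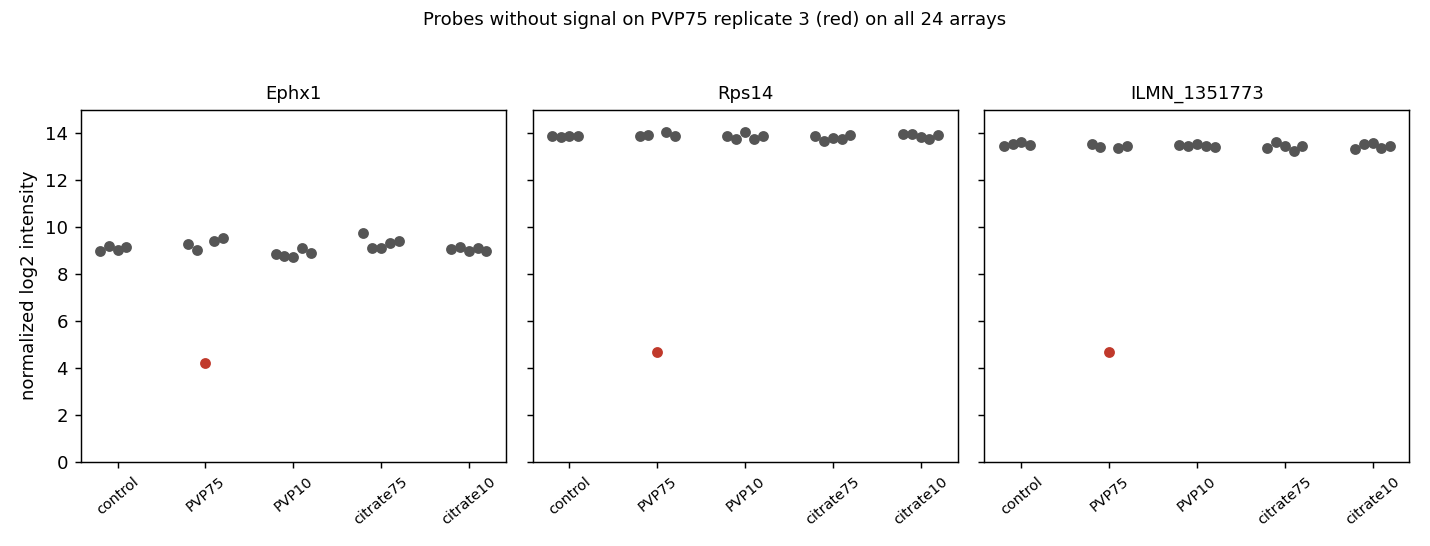
Normalized log2 intensity (y axis, from 0) of 3 probes on all 24 arrays by group. PVP75 replicate 3, in red, lies at 4.21, 4.67 and 4.68, and every other array, in grey, lies far above it for each probe.

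Without PVP75 replicate 3 the number called was 129 (4.69% of tested probes), with 64 higher (2.33%) and 65 lower (2.37%). Of the 149, 116 were still called, 33 were not (adjusted p between 0.0502 and 0.10), and 0 changed direction, while 13 others were gained. Among the gained was Clic4, a chloride channel protein, which had read 5.29, 5.45, 5.37 and 5.43 in control and 6.16, 5.72, 4.66, 5.93 and 5.69 in PVP75. Replicate 3 was the lowest of all 9 arrays, and without it the other 4 lay above the controls (adjusted p = 0.459 with and 0.0117 without it). The NRF2 targets kept their 5 called members and gave a median of 0.34 in place of 0.30.

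Each PVP75 array was also set against the probes called without it, with all 4 control arrays in both values. Of the probes called higher from the other 4, PVP75 replicate 1 was above the controls for 69 of 71, replicate 2 for 62 of 62, replicate 3 for 59 of 64, replicate 4 for 59 of 63 and replicate 5 for 75 of 77. Of those called lower, they were below for 79 of 80, 46 of 47, 62 of 65, 65 of 66 and 68 of 71. Over all tested probes 47.4% to 50% were above 0 on these arrays. The controls are shared, so part of this follows from the controls alone.

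PVP75 and PVP10 share coating, dose and time and differ in nominal size. Their direct difference does not subtract the control level, though control arrays enter the fit through the chip term and the shared spread. It was called for 768 of 2748 probes (27.9%), with 413 higher in PVP75 (15%) and 355 lower (12.9%). For 102 of the 149 probes called against control, the direct difference was called. Among the 72 that rose, PVP75 was below PVP10 for 48 and above it for 2. Among the 77 that fell, PVP75 was less low for 50 and lower for 2. For 47 no difference was called.

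Sqstm1 was at 1.57 in PVP75 and 3.03 in PVP10 against the same controls, and the direct difference was -1.46 (SE 0.114, limma adjusted p = 3.84e-10). Slc1a2 was closer between the sizes, at 3.45 and 4.19 (-0.75, 95% interval -1.11 to -0.38, adjusted p = 0.00194). Lap3 (-1.34), Crebrf (-1.03), Ddit4 (-0.98) and Eaf1 (-0.98) were also further below PVP10. Nfix was at -0.88 in PVP75 and -2.33 in PVP10, and the difference of 1.45 (SE 0.158, adjusted p = 6.73e-08) was the largest upward one among called named genes. Fam83d (1.32), Prrx1 (1.11), Epb41l1 (1.09) and Tmem158 (1.04) followed. Without background correction Fam83d (0.90) and Prrx1 (0.87) differed by more than Nfix (0.82). Epb41l1, a membrane skeleton gene, was not called against control (-0.31, adjusted p = 0.219) and was at -1.39 in PVP10.

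For other called genes the sizes were not told apart. Slc1a5 differed by -0.01 (95% interval -0.18 to 0.15), Mafg by -0.11 (-0.31 to 0.09), Herpud1 by -0.21 (-0.38 to -0.04, adjusted p = 0.0655, but 0.0178 without background correction) and Psmd2 by -0.24 (-0.50 to 0.02). Bmpr2 (0.39, interval 0.01 to 0.77, adjusted p = 0.122) and Sox4 (0.07, interval -0.22 to 0.37) also missed the threshold, which does not show that the particles act alike on them. In 3 named genes the change was larger in PVP75. Ndufb7 was at 0.40 against 0.04 in PVP10 (difference 0.37, adjusted p = 0.0148), Adat2, a tRNA deaminase gene, at -0.41 against -0.13 (-0.28, adjusted p = 0.0494) and Ccdc69 at -0.44 against -0.12 (-0.31, adjusted p = 0.03). Without background correction the difference for Adat2 was not called (-0.13, adjusted p = 0.0657). The PVP75 and control arrays overlapped for all 3. Against control, Adat2 (adjusted p = 0.0301) lost its call without PVP75 2 or 4 or control 1, 3 or 4 (0.0707 to 0.123), and Ccdc69 (0.0257) without PVP75 2 or 3 or control 3 or 4 (0.0525 to 0.103).

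**Figure D5:**
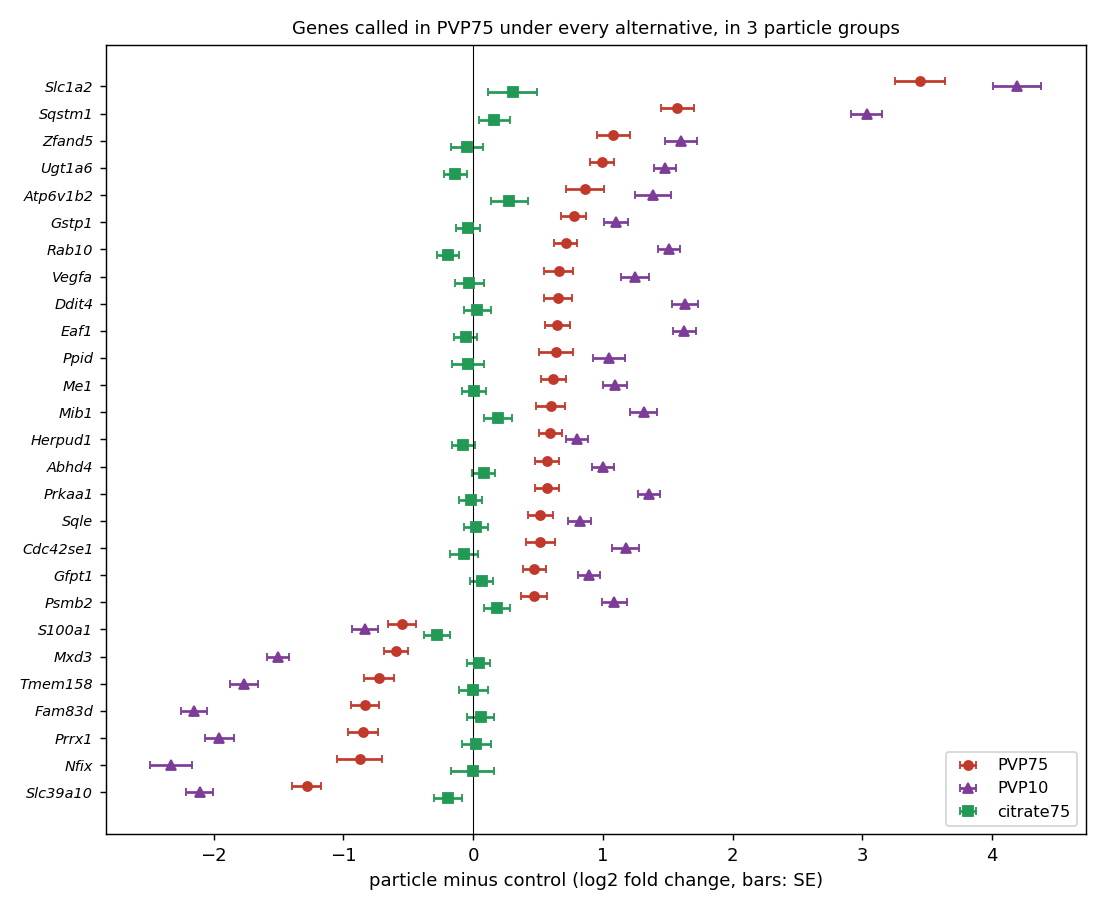
Log2 fold change over control (x axis, bars are SE) of the 27 named genes that were called in PVP75 under all 21 alternatives, in PVP75 (red circles), PVP10 (purple triangles) and citrate75 (green squares), which share the control arrays. PVP10 lies further from 0 than PVP75 for each gene, and citrate75 lies near 0 for most.

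Citrate75 shares size, dose and time with PVP75 and differs in coating. The direct difference was called for 388 probes (14.1%), with 180 higher in PVP75 (6.55%) and 208 lower (7.57%). It was called for 125 of the 149, in the direction of the change against control for 65 rises and 60 falls and in the opposite one for 0. Slc1a2 was at 0.30 in citrate75, and PVP75 was higher by 3.14 (limma adjusted p = 1.08e-13). For Sqstm1 the citrate75 value was 0.16 and the difference 1.41 (adjusted p = 2.79e-10). Slc39a10 was at -0.19 in citrate75 and the difference was -1.09 (adjusted p = 6.71e-09). Ugt1a6 and Zfand5 were both 1.13 higher in PVP75 than in citrate75, and Rab10 0.91 higher. Fam83d (-0.89), Nfix (-0.87), Prrx1 (-0.87) and Tmem158 (-0.73) were lower. Sox4, at -0.28 in citrate75, was not told apart from PVP75 (-0.25, adjusted p = 0.258), nor was Basp1 (-0.35, adjusted p = 0.128).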

How the data were processed

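RNA of RBEC4 cells was hybridised to single-colour bead arrays. The deposited table gives, per the file headers, a linear bead intensity and a detection p-value for each of 22523 probes and array, and the spread of the intensity values shows no background subtraction or normalization. The submitters' processing notes name GenomeStudio 2011.1. Other steps were not given in the sources used here. The authors' second deposited table, also of intensity but with equal quantiles on every array, served as an alternative. The labels' chip names and positions tied each column to its sample, with 0 sample columns unused.

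Normexp background correction (limma 3.58.1, R 4.3.3, offset 16) used negative controls inferred from detection p-values and was followed by log2 and quantile normalization. A probe was kept with a detection p under 0.01 on at least 4 arrays, which left 2774 probes (12.3%). The platform annotation, which can be old, names 13793 probes with 1 symbol, 0 with several and 8730 with none, and 13752 Entrez identifiers were found in the reference table, which changed 0 symbols. A gene was represented by its kept probe with the highest mean. Of 22 genes with several kept probes, 3 had probes that differed in the call. This left 2748 entries (1942 named genes, 806 unnamed probes). A model with group and chip was fitted to all 24 arrays (lmFit, eBayes), adjusted by Benjamini-Hochberg over the 2774 probes, and checked on simulated data. The chip term was called for 31 probes. Where a whole group lacked detection, its level is a bound. The fold is then against the lowest detected level on each array, or the group's own if higher. Such a fold is given without an interval and is not a lower limit of the fitted change. The number of arrays limits the precision, and the median SE of PVP75 against control was 0.117.

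The comparisons, gene lists and markers were chosen with earlier results of these data known, and so was the rule for named genes. It took the 12 largest called rises and falls if detected throughout the higher group, as many as 4 called genes from every list with at least 3 measured, genes whose call and value moved without PVP75 replicate 3, the probes lost on it, genes that changed more than in PVP10, and the 5 largest differences each way from PVP10 and citrate75. Replicate numbers did not pair control and PVP75 arrays (correlations of deviations -0.06, -0.03, -0.07 and 0.07). Alternatives covered background, offset, the authors' values, filters, chip handling, array weights, scaling and each array left out. Promoters came from RefSeq (GRCr8).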

Additional observations from a re-analysis of the deposited data

Results flagged for a closer look

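Among the genes named, 104 groups of control or PVP75 values were examined for a single array far from the rest, and 7 had one, where chance gives about 1 in 20. Of these, 2 were on PVP75 replicate 3, the lost probes Ephx1 at 4.21 and Rps14 at 4.67 (nearest 13.88). Rps14 on control replicate 2, at 13.83 with the other controls at 13.88, stood apart by very little. Control replicate 4 stood apart for Hspb1 at 10.16, where the others reached 9.98. It did so for Slc39a10 at 7.56 as well, where the others reached 7.14, and for Crebrf, not detected on control arrays, at 4.65 with the nearest at 4.83. Without that array Hspb1 was at 0.61 (limma adjusted p = 0.0108) and Slc39a10 at -1.19 (1.73e-08), both still called, and Crebrf at 0.33 (0.291), still not called. PVP75 replicate 5 was low for Epb41l1, at 6.83 with the nearest at 7.23, and without it the log2 fold change was -0.22 (adjusted p = 0.388).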

How the results depend on the processing

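All 149 probes called for PVP75 against control kept their direction under each of the 21 alternatives, and 35 of them, 27 named, were called under every one. Without the detection filter, which tests far more probes, 68 were called (41 higher, 27 lower), and 203 (101 higher, 102 lower) against citrate75. In the fit without PVP75 replicate 3, chosen after seeing the data, the number without that filter was 77. The fit to only the 9 arrays with the chip term called 45 (27 higher, 18 lower), and without the chip term 119. Median scaling gave 45 lower and 70 higher and moved the median of all probes from -0.01 to 0.03. With 1 array left out at a time, 73 to 151 probes were called against control (39 to 77 higher, 34 to 80 lower), 666 to 778 against PVP10 (360 to 413 higher, 306 to 370 lower) and 314 to 431 against citrate75 (154 to 205 higher, 159 to 226 lower). Without control replicate 3 the count was 73, without control replicate 4 it was 85, and without PVP75 replicate 2 it was 109. The cause was not tested. The number called was 171 without background correction, 171 with the authors' values, 182 with an offset of 50, 176 with a stricter filter, 201 without the chip term, 200 with the chip as a random block (correlation 0.006) and 211 with array weights. Without background correction the direct difference from PVP10 was still called for 39 of 41 named genes (not Adat2 and Basp1), and that from citrate75 for 41 of 42 (not Bmpr2). For PVP75 against control, 139 probes were called with the replicate number as a block (64 higher, 75 lower), and 130 of them were among the 149. The replicate numbers were not found to pair the samples. With 1 array left out at a time Ephx1 ranged from -1.02 to 0.18 and Rps14 from -2.21 to 0.081, and both were positive only without PVP75 replicate 3, where their signal was lost. Of 47 called genes taken by the naming rule, 22 were called under every alternative. Probes near background limit what can be said of genes with no measured level.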

Other observations

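Further called genes belonged to none of the lists, and those named here were chosen after their values were seen. Of the rises in this paragraph, Gfpt1, Mib1 and Cdc42se1 were called under all 21 alternatives, and the calls of the others did not hold under all. The lowest log2 fold changes across the alternatives were 0.21 for Gfpt1, 0.28 for Mib1 and 0.35 for Cdc42se1. Slc48a1, a transporter of heme out of endosomes, rose from 6.15, 5.87, 6.10 and 6.28 on the control arrays to 6.47, 6.60, 6.96, 6.60 and 6.83 on the PVP75 arrays (log2 fold change 0.58, limma adjusted p = 0.00222). The groups did not overlap, and the difference from PVP10 was -0.07 (95% interval -0.29 to 0.15). Ptgr1, a reductase of reactive alkenals and prostaglandins, moved from 8.03, 7.91, 8.05 and 8.18 to 8.46, 8.45, 8.46, 8.37 and 8.55 (0.41, adjusted p = 0.00317). Klf5, a zinc finger transcription factor of growing cells, rose by 0.50 (adjusted p = 0.00233), and differed from PVP10 by 0.04 (interval -0.15 to 0.23). The Klf5 rise was 0.77 on chip 1 and 0.17 on chip 2, and the groups lay only 0.046 apart. Gfpt1, the entry enzyme of hexosamine synthesis, rose by 0.47 (adjusted p = 0.00127), and Slc20a1, a phosphate importer, by 0.43 (adjusted p = 0.00513). Mib1, a ubiquitin ligase for Notch ligands, rose by 0.60 (adjusted p = 0.000762). Golph3, a protein gene of the Golgi, rose by 0.53 (adjusted p = 0.00931), the GTPase gene Rac1 by 0.50 (adjusted p = 0.00742) and Cdc42se1 by 0.52 (adjusted p = 0.00399).

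Among the falls outside the lists, the calcium-binding protein gene S100a1 went from 8.71, 8.52, 8.67 and 8.83 to 8.10, 8.29, 7.98, 8.05 and 8.01 (log2 fold change -0.55, limma adjusted p = 0.00127). It was at -0.28 in citrate75, and the difference from that particle missed the threshold (-0.27, adjusted p = 0.0509). Etv4, an ETS transcription factor, read 8.40, 8.37, 8.54 and 8.39 and then 8.09, 7.95, 7.51, 7.47 and 8.10 (-0.58, adjusted p = 0.00599). The histone gene H2ax (-0.33, adjusted p = 0.0165) and the cell cycle gene Prr11 (-0.56, adjusted p = 0.00399) fell as well, as did the RNA-binding protein gene Celf4 (-0.50, adjusted p = 0.00079). Of the falls in this paragraph S100a1 was called under all alternatives, and the calls of the others did not hold under all.

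Genes with several kept probes disagreed in 3 cases. For Cdc40 the brighter probe was at -0.09 (limma adjusted p = 0.861) and the other at -0.67 (adjusted p = 0.00249). For Crem, a regulator of cAMP-responsive genes, they were at 0.26 (0.158) and 0.63 (0.0141). For the adaptor gene Nck2 they were at -0.47 (0.00797) and 0.02 (0.951).

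Of the 35 probes called under every alternative, 8 have no gene name here. The unnamed probe ILMN_1349843 was at -0.86 and ILMN_1359196 at -0.84 against control, and neither was told apart from PVP10 (differences -0.05 and 0.09, limma adjusted p = 0.792 and 0.702). Across the alternatives ILMN_1349843 ranged from -0.90 to -0.35 against control and ILMN_1359196 from -0.97 to -0.49.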
